A study of Macaca mulatta with 10 samples.

Results

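The MHC class I genes described here are the 9 rows of the count table named HLA-B, HLA-C, HLA-E, HLA-F, B2M, TAP1, TAP2, TAPBP and NLRC5, out of 26484 gene rows, chosen by symbol. They were measured in type 1 regulatory T (Tr1) cells, a CD4+ T cell subset that was flow-sorted by CD49b and LAG-3 from thawed blood mononuclear cells of rhesus macaques. All monkeys had streptozotocin-induced diabetes and an intraportal islet allograft from a donor that was MHC class I disparate and matched for one DRB allele. All received a transient course of an antagonistic anti-CD40 antibody, rapamycin, tocilizumab and etanercept. The 5 Cohort B monkeys, 13EP12, 13EP8, 14HP26, 14HP31 and 15CP6, were given no further cells. The 5 Cohort C monkeys, 13EP5, 14HP33, 14HP24, 15CP1 and 15CP4, also had infusions of apoptotic donor leukocytes (ADLs), which are donor cells fixed with a carbodiimide. Each monkey gave 1 RNA-sequencing library, and the labels tie sampling to sacrifice, at rejection for Cohort B and at the end of the study for Cohort C, although the study lists no rejection for 13EP12 and 13EP8. The study lists rejection for 14HP26, 14HP31 and 15CP6 and for no Cohort C monkey, so that rejection and the absence of ADLs cannot be told apart in those 3. The comparison asked whether these genes differed in Tr1 cells between monkeys with and without ADLs.

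MHC class I molecules show peptides from inside a cell to CD8 T cells and to receptors of natural killer cells, and nearly all nucleated cells carry them. A polymorphic heavy chain (HLA-B or HLA-C, or the less variable HLA-E and HLA-F) pairs with the light chain beta2-microglobulin, the product of B2M. The transporter made of TAP1 and TAP2 brings peptides into the endoplasmic reticulum, tapasin (TAPBP) holds the empty heavy chain beside it, and NLRC5 switches on transcription of the class I genes. In T cells class I genes are normally among the abundant transcripts. Macaques carry duplicated A and B loci and lack a counterpart of HLA-C. In the RefSeq gene table of the macaque assembly T2T-MMU8v2.0, 8 coding loci of the MHC chromosome had a class I Mamu name. The names searched were those of Mamu-A, B, I, E, F and AG, so this count does not bear on Mamu-C. The authors mapped the macaque reads to the human genome hg38, so the HLA rows may lose reads that differ too far from the human sequence, and a read of one Mamu gene may be counted under another HLA name. The values under HLA-B and HLA-C are therefore reads assigned to those human genes, not measurements of a single macaque locus.

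Cohort B libraries held between 6076 and 1392157 counts, and those of Cohort C held between 66485 and 5895609. Library 14HP31 held the fewest, and 87.0% of the counts of library 14HP33 lay in rows of the MTRNR2L family, copies related to mitochondrial ribosomal RNA, against 3.09 to 43.4% in the other 9. Of 10 T cell markers, at least 5 were counted in 6 libraries, and 14HP26, 14HP31, 14HP33 and 15CP4 had counts on 0 to 2 of them. The sort markers ITGA2 (CD49b) and LAG3 were both at 0 in 6 libraries and summed to 2 to 49 counts in the other 4. Monocyte markers passed 3 counts in 3 libraries of each cohort. The limit set by a count of 0 is 3 counts, which equals 0.509 CPM (counts scaled to the library total) in 15CP1 and 494 CPM in 14HP31. Intervals and limits given here cover counting error only, and in bulk samples fewer cells of a type and less RNA per cell cannot be told apart.

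Of the 90 values (9 genes in 10 libraries), 28 were above 0. The heavy chain rows HLA-B and HLA-C and the regulator NLRC5 were each counted in 7 libraries, B2M in 4, TAPBP in 2 and HLA-E in 1. HLA-F, TAP1 and TAP2 had no count in any library. Over the 13567631 counts of all libraries, a count of 0 allows a level of up to 0.221 CPM for each of these 3 rows. Library 15CP1, the deepest, held 6 of the 9 genes, and libraries 14HP26 and 14HP31 of Cohort B held none.

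**Figure D1:**
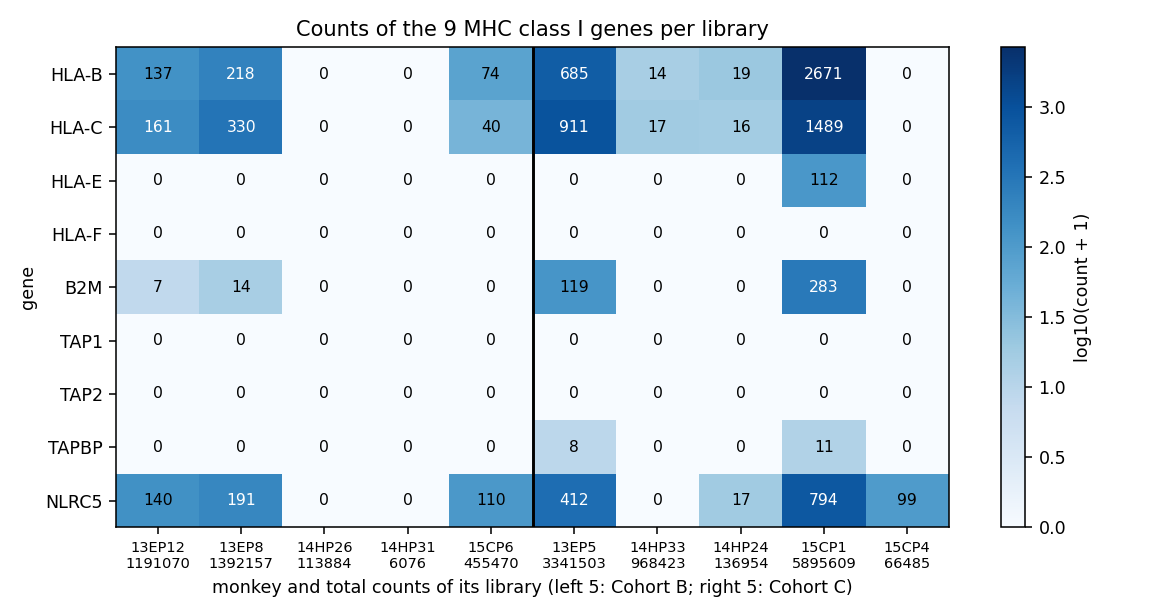
Counts of the 9 genes (rows) in the 10 libraries (columns, with monkey and total counts), shaded by log10(count + 1); the 5 columns left of the line are Cohort B and the 5 to the right are Cohort C. HLA-B, HLA-C and NLRC5 filled 7 columns each, and the rows of HLA-F, TAP1 and TAP2 were at 0 throughout.

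The rows at 0 stood in a stretch of the genome where most rows were at 0. TAP1, TAP2 and TAPBP lie within the MHC, taken here, after the counts had been seen, as the coding genes from DAXX to MOG in the order of the macaque RefSeq table. Of the 105 genes of that block with a row in the count table, 87 (82.9%) had no count in any library. Outside the block, 140 of the 732 coding genes of the same chromosome (19.1%) were at 0, as were 30 of the 104 nearest neighbours on its sides. RPS18, a ribosomal protein gene of the block, had 1 count in all, while the median ribosomal protein gene among 77 had 5195. The proteasome genes PSMB8 and PSMB9, neighbours of TAP1 and TAP2 whose products cut proteins into peptides for class I, were also at 0 in every library. The highest total in the block was 178 counts, on GPSM3. The HLA rows themselves do not enter these counts, since RefSeq lists their macaque counterparts under Mamu names. HLA-B and HLA-C, also genes of the MHC, had 3818 and 2964 counts in all, so that low counts did not hold for every MHC row.

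A second block of immune genes looked alike. Among the 25 coding genes from TFPT to NCR1, which hold the LILR and KIR receptors that bind class I molecules, 17 (68.0%) were at 0, against 172 of the 1127 other coding genes of that chromosome (15.3%). RPS9, a ribosomal protein gene in this second block, had 31 counts in all. The part of mapping and counting in these zeros was not tested, and the zeros on HLA-F, TAP1 and TAP2 are given as listed values, not as absence of the transcripts.

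**Figure D2:**
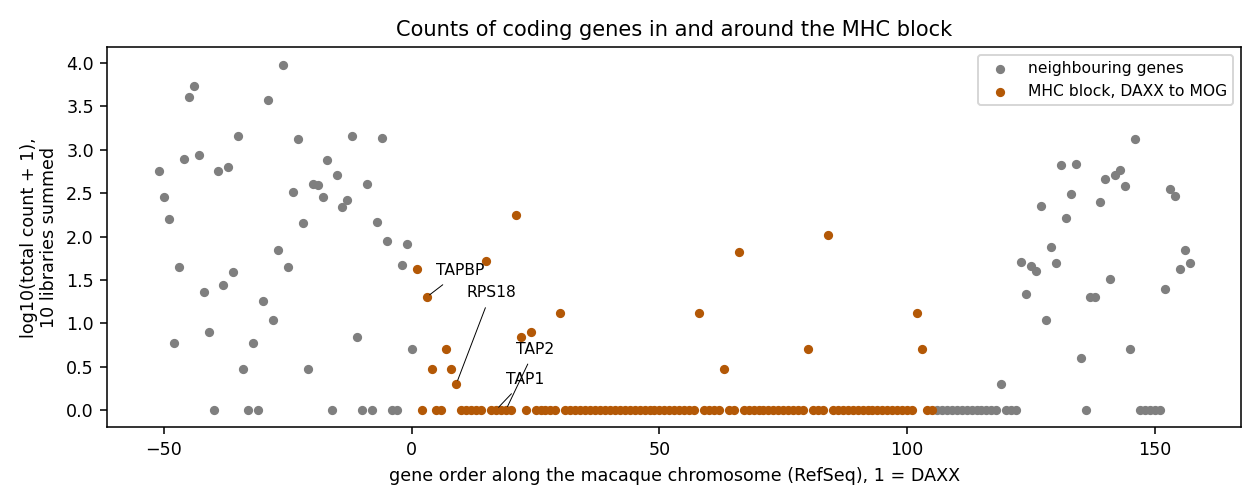
Total count over the 10 libraries, as log10(count + 1), of each coding gene in and around the MHC block, in the order of the macaque RefSeq gene table. The 105 genes of the block lie mostly on the zero line, with TAP1 and TAP2 among them, TAPBP at 19 counts and RPS18 at 1.

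HLA-B, one of the classical heavy chain rows, had 137, 218, 0, 0 and 74 counts in Cohort B monkeys 13EP12, 13EP8, 14HP26, 14HP31 and 15CP6. In Cohort C monkeys 13EP5, 14HP33, 14HP24, 15CP1 and 15CP4 it had 685, 14, 19, 2671 and 0 counts. On the CPM scale after TMM normalization the Cohort B libraries with counts ran from 118.8 to 166.5. Those of Cohort C ran from 109.5 to 553.6. The 14 counts of 14HP33 were 14.46 CPM of its library total, and its TMM factor of 0.0725 raised them to 199.3. The cohorts overlapped, with 2 libraries of Cohort B and 1 of Cohort C at 0, and 15CP1 was the highest library and held 70.0% of all HLA-B counts (95% Wilson interval 68.5 to 71.4%). On the log2(CPM + 1) scale HLA-B was 4.33 ± 3.96 (SD, n = 5 monkeys) in Cohort B and 6.26 ± 3.6 (SD, n = 5) in Cohort C.

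HLA-C, the other classical heavy chain row, had 161, 330, 0, 0 and 40 counts in Cohort B and 911, 17, 16, 1489 and 0 in Cohort C, with monkeys in the same order. It was counted in the same 7 libraries as HLA-B. After TMM normalization its CPM in those libraries ran from 88.4 to 252.0 in Cohort B and from 92.2 to 308.6 in Cohort C. The cohorts again overlapped. The 17 counts of 14HP33 were 17.55 CPM of its library total and 242.1 after TMM scaling. The means on the log2(CPM + 1) scale were 4.32 ± 3.98 (SD, n = 5) and 6.18 ± 3.52 (SD, n = 5).

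At the depth of 14HP26 a level as low as the lowest among the 7 libraries with counts would have given 9.00 counts of HLA-B and 9.38 of HLA-C, both taken as CPM outside the MTRNR2L rows. The same reckoning gave 4.17 and 4.35 counts for 15CP4, and 0.569 and 0.593 for 14HP31. The zeros of 14HP31 are thus within its floor of 3 counts, and those of 14HP26 and 15CP4 lay below these levels. In 14HP26 and 15CP4, 8 and 9 of the 10 T cell markers and 5 of the 8 housekeeping genes were also at 0. The part of low detection in general in these zeros was not tested. Of the 3 monkeys with listed rejection, 15CP6 did hold HLA-B and HLA-C.

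**Figure D3:**
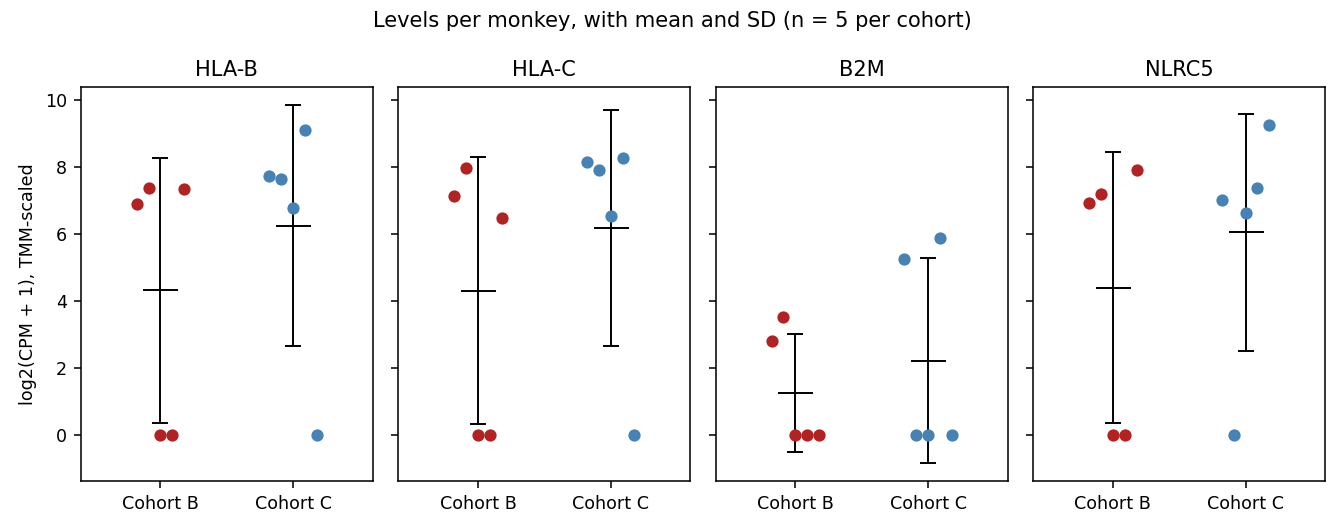
Levels of HLA-B, HLA-C, B2M and NLRC5 in each monkey as log2(CPM + 1) with TMM scaling, for Cohort B in red and for Cohort C in blue; the horizontal line and bar give the mean and SD of 5 monkeys. In each panel the cohorts overlap, and each has libraries at 0.

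The balance between the heavy chain rows differed among monkeys. The share of HLA-B in the sum of HLA-B and HLA-C, which needs no scaling between libraries, was 39.8% in 13EP8 (95% Wilson interval 35.8 to 43.9%, 548 counts) and 42.9% in 13EP5 (40.5 to 45.4%, 1596 counts). It was 64.9% in 15CP6 (55.8 to 73.1%, 114 counts) and 64.2% in 15CP1 (62.7 to 65.7%, 4160 counts). The intervals of the last pair lay above 50% and those of the first pair below it, and each pair held 1 monkey of each cohort. In 13EP12 (46.0%), 14HP33 (45.2%) and 14HP24 (54.3%) the interval included 50%. The labels of 15CP6 and 15CP1 carry a suffix that marks a sequencing index. The label of 14HP33 does so too, and its interval, over 31 counts, ran from 29.2 to 62.2%. Class I alleles differ from monkey to monkey, and the parts of alleles and of the index suffix in this share were not tested.

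B2M, the common light chain, had 7 counts in 13EP12 and 14 in 13EP8, both of Cohort B, and 119 in 13EP5 and 283 in 15CP1, both of Cohort C. It was at 0 in the other 6 libraries. These are the 4 deepest libraries, and both of Cohort C were deeper than both of Cohort B. After TMM normalization, B2M was at 6.07 and 10.7 CPM in 13EP12 and 13EP8 and 37.1 and 58.7 in 13EP5 and 15CP1. On library totals the same 4 values were 5.88, 10.1, 35.6 and 48.0 CPM. Within the libraries, B2M made up 2.30% (95% Wilson interval 1.12 to 4.66%) and 2.49% (1.49 to 4.14%) of the B2M, HLA-B and HLA-C counts in 13EP12 and 13EP8. It made up 6.94% (5.83 to 8.24%) in 13EP5 and 6.37% (5.69 to 7.13%) in 15CP1. In 15CP6 of Cohort B it was 0 of 114, which allows up to 3.26%, and in 14HP33 and 14HP24 of Cohort C it was 0 of 31 and 0 of 35, which allows up to 11% and 9.89%. The intervals of 13EP5 and 15CP1 thus lay above those of all 3 Cohort B libraries with heavy chain counts, and the remaining Cohort C libraries were too shallow to place. Since depth moved with this share and only 7 libraries had a value, no test was made. B2M had 423 counts in all against 3818 for HLA-B, and the part of mapping in this was not tested. Platelet markers summed to 273.9 CPM outside the MTRNR2L rows in 13EP5 and to 4.21 in 15CP1. Their part in the B2M share was not tested either.

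**Figure D4:**
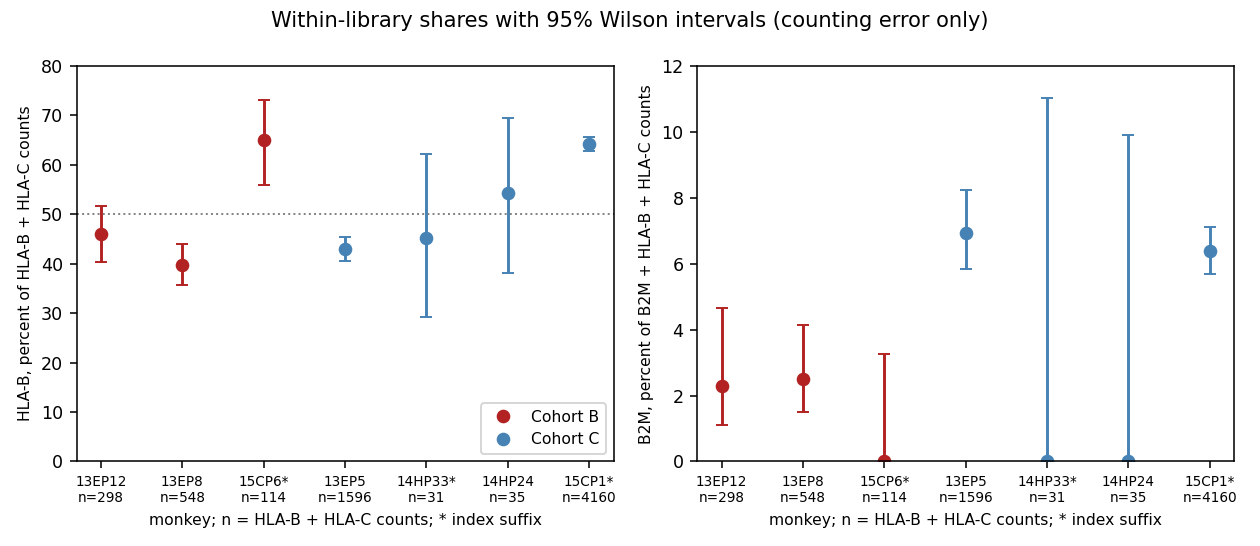
Left, HLA-B as a percent of HLA-B and HLA-C counts; right, B2M as a percent of B2M, HLA-B and HLA-C counts, in the 7 libraries with such counts (Cohort B red, Cohort C blue), with 95% Wilson intervals. HLA-B was near 64% in 15CP6 and 15CP1, and B2M was higher in 13EP5 and 15CP1 than in 13EP12 and 13EP8.

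NLRC5, the class I transactivator, lies outside the MHC. It had 140, 191, 0, 0 and 110 counts in Cohort B and 412, 0, 17, 794 and 99 in Cohort C, in the order of monkeys used above. As CPM outside the MTRNR2L rows, it lay between 121.3 and 162.9 in 5 libraries whose totals differed widely, 13EP12, 13EP8, 13EP5, 14HP24 and 15CP1. It was 318.0 in 15CP6 and 2632 in 15CP4. In 15CP4, a library of 66485 counts in which 891 genes were detected, NLRC5 was the only one of the 9 genes with a count. In 14HP33 the reverse held, with HLA-B and HLA-C counted and NLRC5 at 0, where the lowest level of the other libraries would have given 15.3 counts. On the log2(CPM + 1) scale NLRC5 was 4.41 ± 4.05 (SD, n = 5) in Cohort B and 6.06 ± 3.54 (SD, n = 5) in Cohort C.

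The remaining genes were counted in 1 or 2 libraries. HLA-E, whose product presents leader peptides of other class I chains to the CD94 receptor, had 112 counts in 15CP1 and 0 in the other 9 libraries. As a share of the library total this was 19.0 CPM. In Cohort B, 3 counts set limits of 2.52, 2.16 and 6.59 CPM in 13EP12, 13EP8 and 15CP6, all below that level. The limits of 26.3 CPM in 14HP26 and 494 CPM in 14HP31 lay above it. In Cohort C the limits of 0.898 CPM in 13EP5 and 3.10 CPM in 14HP33 also lay below it. Those of 21.9 CPM in 14HP24 and 45.1 CPM in 15CP4 lay above it. On library totals 15CP1 thus stood apart from libraries of both cohorts. As CPM outside the MTRNR2L rows, HLA-E was at 19.6 in 15CP1, and the limit of 14HP33 was 23.8. The zero of 14HP33 therefore cannot be placed below 15CP1 on that scale. TAPBP, which encodes tapasin, had 8 counts in 13EP5 and 11 in 15CP1, which are 2.39 and 1.87 CPM of the library total. Both levels lay below the limit of 13EP12, while that of 13EP5 lay above the limit of 2.16 CPM in 13EP8 and that of 15CP1 below it. With 19 counts in 2 libraries, no difference in TAPBP between the cohorts was shown. Neighbouring class I rows that are no members also took reads in the deepest libraries. The pseudogene rows HLA-H and HLA-L had 133 and 94 counts in 13EP5 and 280 and 252 in 15CP1. HLA-G had 10 and 11 in the same monkeys. In Cohort B, HLA-H and HLA-L had 19 and 47 counts in 13EP12 and 10 and 37 in 13EP8, with HLA-G at 0. Reads of near-identical class I copies could be split among all these rows, so the counts of single heavy chain rows are uncertain.

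The cohorts were compared with edgeR (quasi-likelihood F-test) across 14168 genes that had 10 or more counts summed over libraries, a filter that 6 of the 9 members passed. None of the 6 reached a Benjamini-Hochberg adjusted p under 0.05, as did 0% of all genes tested. For its transcriptome data the study also names a limma test with an adjusted p cutoff of 0.05 and a fold change cutoff. The filter in its RNA-sequencing methods, here the study's filter, asks for an unadjusted p below 0.01 with a change of 1.5-fold or more. It called 0 of the 6 in either direction, against 6.43% of all genes, of which 1.07% were higher and 5.36% lower in Cohort C. At an unadjusted p under 0.05 there were 2, HLA-E and TAPBP, against 20.6% of all genes, and both were at 0 in all of Cohort B. Limma-voom and edgeR's exact test gave 0 of the 6 at either threshold and 0 at an unadjusted p under 0.05. DESeq2 gave the same for 5 members and no p for HLA-E. HLA-E and TAPBP passed the filter through Cohort C alone, so their direction was fixed by the filter. The 4 members counted in both cohorts had a log2 fold change above 0, as had 53.5% of all genes, whose median was 0.16.

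The log2 fold change, Cohort C over Cohort B, was 1.23 for HLA-B (standard error 1.97, adjusted p = 1.0) and 0.92 for HLA-C (standard error 1.96, adjusted p = 1.0) in edgeR. It was 2.28 for B2M (standard error 2.17, adjusted p = 0.799) and 0.96 for NLRC5 (standard error 1.96, adjusted p = 1.0) in the same fit. The adjusted p of edgeR was 0.141 for HLA-E and 0.192 for TAPBP. The differences of HLA-B, HLA-C, B2M and NLRC5 were smaller than, or close to, their standard errors, so that neither a difference of several fold nor its absence could be shown at this spread. Exact permutation of log2(CPM + 1) over all 252 splits into 5 and 5, two-sided, gave p = 0.310 for HLA-B, 0.333 for HLA-C, 0.683 for B2M and 0.548 for NLRC5, each with an adjusted p of 1 over all genes tested. In that permutation test, 0.24% of all genes had an unadjusted p under 0.05 and 0 of these 4 members did. HLA-E and TAPBP, counted in 1 and 2 libraries, could not reach such a p in any split. The CPM values of the cohorts overlapped for each of the 6 members, and they did not overlap for 0.0141% of all genes. On the authors' FPKM values, limma on log2(FPKM + 1) gave 0 of the 4 members tested an unadjusted p under 0.05, against 0.281% of the 10307 genes tested.

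With the index suffix of the labels as a covariate the log2 fold changes were 0.73 for HLA-B, 0.66 for HLA-C, 2.19 for B2M and 1.0 for NLRC5, and no member was called. Single libraries moved these values. Without Cohort C monkey 15CP4 the log2 fold change of NLRC5 was -0.08, and without the libraries 14HP31 and 15CP4, which held under 100000 counts, it was -0.37. Without 15CP1 that of HLA-B was 0.52 and that of B2M 1.30, and without 13EP8 that of B2M was 3.17. In no fit with 1 library left out did a member have an adjusted p under 0.05. Restricted to 13EP12, 13EP8 and 15CP6 of Cohort B and 13EP5, 14HP24 and 15CP1 of Cohort C, the libraries with at least 5 of 10 T cell markers, the log2 fold changes were 0.82 for HLA-B, 0.40 for HLA-C, 2.33 for B2M and -0.47 for NLRC5. The count of members called stayed at 0 there.

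**Figure D5:**
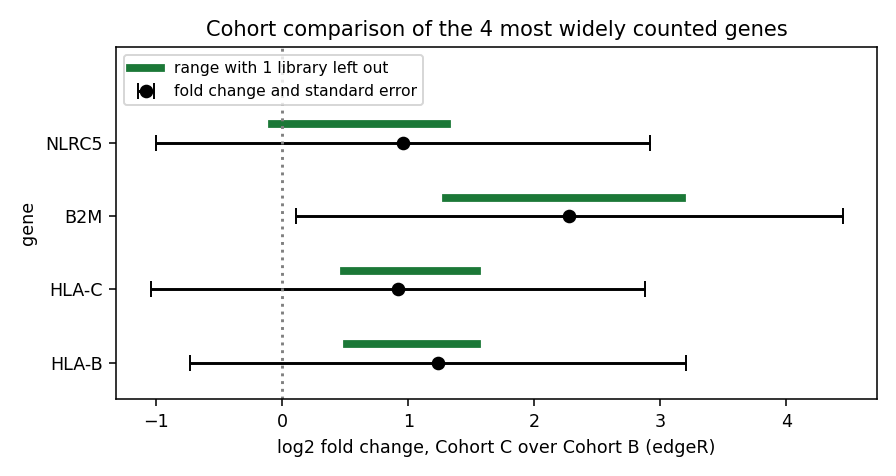
Log2 fold change of Cohort C over Cohort B in edgeR's quasi-likelihood fit (points, with the standard error as bars) and its range over the 10 fits that each left out 1 library (green). For HLA-B, HLA-C and NLRC5 the bar includes 0, and the range of NLRC5 reaches -0.08.

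Other genes of the class I pathway were taken from 4 lists of 45 genes in all, of which 36 were tested, 6 were at 0 in every library, and 0 were called, either by the study's filter or after adjustment, in the edgeR fit. Over all genes the filter called 6.43%, adjustment left 0%, and 9159 of 26484 rows were at 0 in every library. Of 15 antigen processing genes, 13 were tested, 8 with a log2 fold change above 0 and 5 below, where 53.5% of all genes lay above 0. The most counted were chaperones that help fold heavy chains, with HSPA5 at 12141 counts over 9 libraries, CALR (calreticulin) at 6259 over 8, CANX (calnexin) at 4484 over 8 and PDIA3 at 3784 over 6. Their log2 fold changes were 0.66, 0.88, 1.03 and -0.04, each with an adjusted p of 1.0. The median of the list was 0.34.

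Among 13 regulators of class I transcription, all tested, 6 had a log2 fold change above 0 and 7 below. IRF1, which carries interferon signals to class I genes, had 5705 counts in all and a log2 fold change of -0.27 (adjusted p = 1.0). NFKB1 and IRF2, further transcription factors of this list, had -0.56 and -0.72 (both adjusted p = 1.0). IRF1 was counted in 8 libraries, among them 14HP26 with 33 counts, where all 9 members were at 0. The smallest p of the list was that of RFXAP, a subunit of the factor that binds the class I promoter (unadjusted p = 0.0127, adjusted p = 0.141), with 4, 2 and 39 counts in 13EP5, 14HP33 and 15CP1 and 0 elsewhere.

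Of 10 receptors that bind class I, 3 were at 0 in every library and 5 were tested, 4 of them with a log2 fold change below 0. CD8A encodes a chain of the coreceptor that cytotoxic T cells carry. It had 77 and 14 counts in 13EP12 and 13EP8 and 39 and 88 in 13EP5 and 15CP1 (adjusted p = 1.0). KLRD1, which encodes CD94, had 57, 59, 1 and 40 counts in the same 4 monkeys (adjusted p = 0.541), and CD8B and KLRC1 had 37 and 25 counts in all. Among 7 other MHC-like chains, 5 were tested and 0 called, and FCGRT, which encodes the heavy chain of the neonatal Fc receptor, led with 22, 19, 4, 0 and 10 counts in Cohort B and 718, 0, 0, 198 and 0 in Cohort C (adjusted p = 0.946). HLA-G, CD1D and MR1 had 21, 29 and 13 counts in all.

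Class I genes are also expressed by other cells that a sort can carry over. As CPM outside the MTRNR2L rows, summed monocyte markers ranged from 0 to 1275 in Cohort B and from 0 to 1174 in Cohort C, with CD14 at 0 in 6 libraries. On the same scale CD8 and NK cell markers ranged from 0 to 223.5 and from 0 to 68.8, B cell markers from 0 to 123.2 and from 0 to 186.6, and platelet markers from 0 to 22.5 and from 0 to 273.9. The monocyte sum was 1275, 1172 and 1156 in 13EP12, 13EP8 and 15CP6, where HLA-B and HLA-C together were at 258.2, 409.6 and 329.6. It was 183.5, 728.4 and 1174 in 13EP5, 14HP24 and 15CP1, where the 2 rows together were at 493.9, 335.4 and 729.6. The monocyte marker VCAN carried 1104 of 1472 monocyte counts in 13EP12 and 4416 of 6693 in 15CP1, but 184 of 593 in 13EP5. Per 100 counts on the 10 T cell markers, HLA-B and HLA-C together had 11.7, 21.5 and 22.3 counts in 13EP12, 13EP8 and 15CP6 and 25.8, 53.0 and 35.0 in 13EP5, 14HP24 and 15CP1, the value of 14HP24 resting on 66 T cell counts. In 14HP33 the same ratio was 194 over only 16 T cell counts, while in 14HP26 and 15CP4 it was 0, so that the cohorts overlapped. The part of other cells in these ratios was not tested. The class II chain HLA-DRA was counted in 7 libraries, with 10 counts in 15CP4, where the class I chains were at 0, and 0 in 14HP33, where HLA-B and HLA-C were counted.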

How the data were processed

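Reads were 50 base pairs, paired-end. The authors mapped them with HISAT2 2.0.2 to the UCSC human genome hg38 and deposited raw counts per gene symbol. The counter's options on strand and on reads with several matches are not given in the sources used here, nor whether the genome copy held alternate MHC haplotypes. The authors also deposited FPKM values from Cuffdiff 2.2.1.

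Groups came from the sample labels. The members and lists were chosen with earlier results of these data known. Counts of 26484 rows were filtered at 10 counts summed over libraries and tested with edgeR 4.0.16 (R 4.3.3), TMM normalization and the quasi-likelihood test. Standard errors were derived from fold change and F statistic. CPM (counts per 1e6) uses the full library total times the TMM factor (0.0725 for 14HP33). Limits in CPM, and the HLA-E and TAPBP values beside them, use the library total without that factor unless stated as outside the MTRNR2L rows. Every tested gene was also permuted exactly over 252 splits; the smallest possible two-sided p is 0.00794. Alternatives were DESeq2 1.42.0, limma 3.58.1, edgeR's exact test, other scalings and filters, a replicate block, an index covariate and left-out libraries. Named genes were the members and, per list, genes called by the study's filter plus the 4 with most counts, of which 1 is not reported here; HLA-H, HLA-L, RFXAP, RPS18, RPS9, GPSM3 and the gene blocks were chosen after their values were seen. The fits were tested on simulated data. Of the 9 members, 5 had their symbol in the RefSeq table, which names macaque heavy chains Mamu. Its coordinates were used only for gene order, since its build differs from that of the files. Wilson intervals were computed with scipy 1.17.1 (Python 3.11.15). Nothing says that libraries were repeated, so p-values rest on 5 libraries per cohort, 1 per monkey. Their spread joins differences between monkeys with those of depth and library quality, which cannot be told apart.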

Additional observations from a re-analysis of the deposited data

Results flagged for a closer look

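Among the 10 groups of 5 libraries with any spread in a member, 4 groups, each in Cohort C, had 1 library set apart from its group. Chance flags about 1 in 20 groups of continuous values, a rate that does not apply here, since each gap runs to or from counts of 0 and its size depends on the pseudocount. Monkey 15CP4 stood apart at a log2(CPM + 1) of 0 for HLA-B and for HLA-C, with a gap of 0.745 and 0.791 of the group's range to the next library, which are 2 flags from 1 library of 66485 counts. Monkey 14HP33 stood apart at 0 for NLRC5, with a gap of 0.715. Monkey 15CP1 stood apart for HLA-E at 4.60, where the other 4 libraries of the cohort were at 0, so that its gap spans the whole range by construction.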

How the results depend on the processing

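No member had an adjusted p under 0.05 in any of the 25 alternatives to the edgeR fit that gave it a p (DESeq2 gave none for HLA-E), and with 1 library left out the counts of members and of pathway genes called stayed from 0 to 0. With RLE scaling the study's filter called 1 member, HLA-E (unadjusted p = 0.00975, adjusted p = 0.092), and 1 pathway gene, RFXAP. The log2 fold changes of HLA-B, HLA-C and B2M kept their sign in all alternatives that gave one, from 0.52 to 1.81, 0.40 to 2.33 and 0.61 to 3.17. That of NLRC5 turned to -0.078 without 15CP4, to -0.37 without the libraries under 100000 counts and to -0.47 without those with fewer than 5 of 10 T cell markers, an alternative chosen after seeing the data, and ran from -0.08 to 1.31 with each library left out in turn. With filterByExpr 3 members were tested. The scaling moved the median log2 fold change of all genes from 0.16 to -0.03 (RLE) and -0.11 (library size only). On CPM scaled by library size only, exact permutation gave p = 0.595 for HLA-B, 0.643 for HLA-C, 0.683 for B2M and 0.524 for NLRC5. Relative to the median of 0.16, HLA-B was 1.08, HLA-C 0.76, B2M 2.12 and NLRC5 0.80. Over all genes the study's filter called 911, of which 16.7% were higher in Cohort C. It called 1525 (33.8% higher) with RLE, 10 with filterByExpr, 61 with edgeR's exact test, 22 with DESeq2, 67 with limma-voom and 98 when the index suffix was added to the model. With 1 library left out it called from 76 (without 13EP5, 85.5% higher) to 695 (without 14HP31).

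With the replicate number as a block, the log2 fold changes were 1.81 for HLA-B, 1.68 for HLA-C, 1.52 for B2M and 1.75 for NLRC5, 0 members were called, and the filter called 0 genes in all. The numbers mark different monkeys: deviations of same-numbered libraries had correlations from -0.432 to 0.375, and 0 of 5 matched their own number best. Depth sets the limits: the zeros of 14HP31 say nothing about the members, and those on B2M in 5 of its 6 libraries at 0 lay where the median level of the other 4 gives fewer than 3 counts.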

Other observations

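The FPKM table, which alone scales by length, gave other levels than the counts. Of the 28 member values with counts, 10 were listed at 0 FPKM, and 0 of the 62 values without counts were above 0. The largest such gap was HLA-C in 13EP12, with 161 counts and an FPKM listed at 0. On the FPKM scale HLA-B was 1.74, 16.4, 179.8 and 25.7 in 13EP12, 13EP8, 13EP5 and 15CP1, and B2M was 0, 16.5, 7.79 and 15.3 in the same monkeys. The counts of B2M and HLA-B in 13EP8 were 14 and 218. NLRC5 was the highest of the members in 15CP4, at 302.5 FPKM.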
